A study of Mus musculus with 12 samples.

Results

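Spleens of untreated mice that lack both ficolins were compared with spleens of untreated WT mice, gene by gene, to ask how far ficolin deficiency alone altered the transcriptome before any challenge. The comparison rested on 6 of the 12 arrays of the series, 3 from naive ficolin KO mice and 3 from naive WT mice, and covered 22180 genes. All mice were female C57BL/6 of 10 weeks by the labels, with 1 Affymetrix Mouse Gene 2.0 ST array of whole spleen RNA per mouse. The naive mice were untreated by the labels. The remaining 6 arrays came from WT and ficolin KO mice given 10 mg/kg LPS 6 h before sacrifice, and they entered the same fit and served as other mice of the same genotypes. The ficolin KO mice lacked ficolin-A and ficolin-B throughout the body. WT and ficolin KO mice were bred as separate homozygous lines derived from heterozygous crosses, so line and genotype cannot be told apart. A gene was represented by the probe set that named it alone and, where several did, by the one of highest mean over all 12 arrays.

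Ficolins are soluble lectins that bind acetylated sugars on microbes and dying cells and start the lectin pathway of complement through associated serine proteases. In the mouse, ficolin-A is made by macrophages of spleen and liver and circulates in plasma, whereas ficolin-B belongs to myeloid cells of the bone marrow. The spleen filters blood and holds B and T cells, macrophages and a store of myeloid cells.

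Values are log2 intensities after normalization by the authors, so that 1 unit is a doubling, and fold-changes are naive ficolin KO over naive WT. A lower intensity may reflect fewer cells of a type or less RNA per cell, and whole spleen RNA cannot tell these apart. Fcna, the ficolin-A gene, was 8.79, 8.88 and 9.38 in naive WT mice (replicates 1, 2 and 3, the order kept below) and 3.98, 4.85 and 4.33 in naive ficolin KO mice. The groups lay far apart, and the intensity was 24.8-fold lower in ficolin KO mice (log2 fold-change -4.63, SE 0.20, adjusted p = 8.86e-09 from limma). Fcnb, the ficolin-B gene, was 3.69, 3.18 and 3.65 in WT and 3.54, 3.50 and 3.57 in ficolin KO mice (log2 fold-change 0.03, SE 0.14). Both groups lay below the lowest array median of 4.17, so the array gave no check of the ficolin-B deletion in spleen. Of the 8 other measured genes of the lectin pathway, which hold the mannose-binding lectins, collectins and Masp1, none met the criteria below. Colec11, a collectin that also binds sugars, had an unadjusted p under 0.05, at 3.29, 3.79 and 3.70 in WT and 3.35, 3.34 and 3.02 in ficolin KO mice, and it was dim in all of them. None of 32 measured complement components and regulators met the criteria or had an unadjusted p under 0.05, and their log2 fold-changes ran from -0.28 to 0.25. Of all genes, 0.185% met the criteria and 2.85% had such a p.

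With the criteria of the study, a fold-change over 1.5 together with an unadjusted p under 0.05, 41 of 22180 genes (0.185%) were differentially expressed genes (DEGs). Of these, 21 (0.0947%) were higher and 20 (0.0902%) lower in ficolin KO mice. The p here is from limma fitted to all arrays, so 41 is not the study's own count. The paper, with other software, lists fewer naive DEGs. Ordinary least squares on the naive groups alone gave 17. By limma, Fcna was the 1 gene (0.00451%) with an adjusted p under 0.05. Without the fold criterion, 633 genes (2.85%) had an unadjusted p under 0.05, 324 (1.46%) higher and 309 (1.39%) lower, fewer than the 5.18% (1150 genes) found between the genotypes after LPS challenge. The log2 fold-changes of all genes had a median of 0 and an SD of 0.15, with -0.36 and 0.37 as the first and the last percentile. Only 7 genes exceeded a log2 difference of 1 in either direction. The 95% interval of a log2 fold-change reached 0.30 to either side at the median (1.23-fold), and for 19589 genes (88.3%) it lay wholly within a 1.5-fold change, so that for these genes a larger difference fell outside the interval. For 2591 genes the interval reached beyond a 1.5-fold change.

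**Figure D1:**
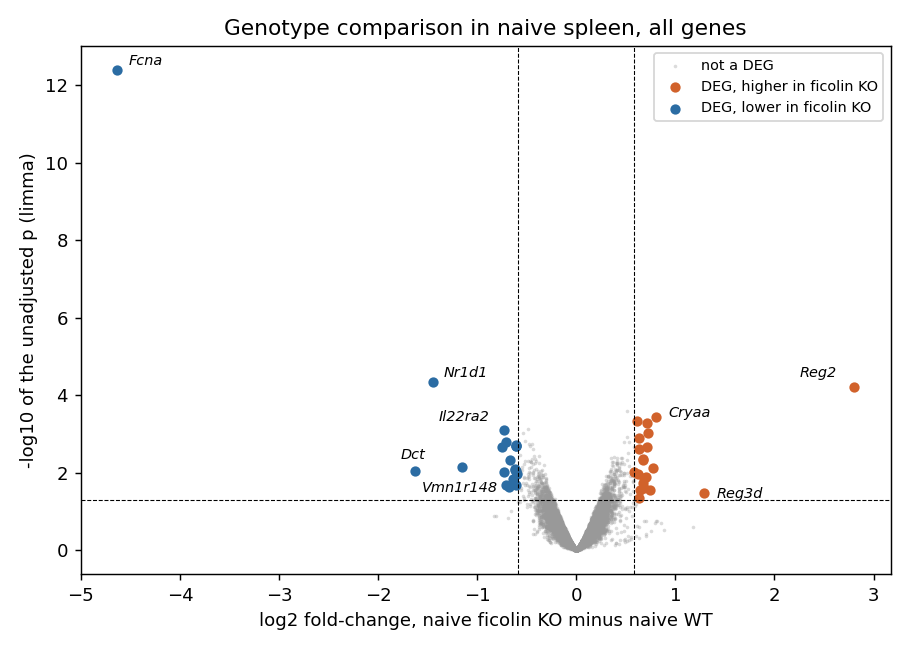
Each point is 1 of 22180 genes in naive spleen; the horizontal axis is the log2 fold-change of ficolin KO over WT mice and the vertical axis is -log10 of the unadjusted p from limma. Dashed lines mark the criteria (1.5-fold, p of 0.05), and the 21 higher DEGs (orange) and 20 lower DEGs (blue) lie beyond them, with Fcna far from all others and Nr1d1 and Reg2 next.

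Markers of spleen cell types gave no DEG, where 0.185% of all genes were DEGs, a share at which lists of this size would mostly hold none. No member of the lists for neutrophils (14 measured), B cells (12), red pulp macrophages (13), T cells (11), dendritic cells (9), plasma cells (10), erythroid cells (10), monocytes (10), marginal zone macrophages (8, metallophilic cells included), NK cells (10), endothelium and stroma (16) or megakaryocytes and platelets (9) was a DEG, and the medians of their log2 fold-changes ran from -0.11 (erythroid cells) to 0.12 (neutrophils). The interval lay within a 1.5-fold change for 1 of the 14 neutrophil genes and for none of the 10 erythroid genes. In the other cell lists it did so for between 4 of 8 genes (marginal zone macrophages) and all 12 (B cells). The erythroid means of the naive arrays ran from 6.62 to 8.55. For neutrophil and erythroid genes the absence of a DEG thus cannot show equal levels. The spleen label held, with a mean B cell marker intensity of 9.66 to 9.92 and a mean red pulp macrophage intensity of 8.54 to 8.85 on the 6 naive arrays. Arrays of 1 genotype did not resemble each other more than arrays of different genotypes: correlations across genes were 0.987 to 0.990 among naive WT arrays, 0.990 to 0.992 among naive ficolin KO arrays and 0.989 to 0.992 between the genotypes (genes are not independent replicates).

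Of the 41 DEGs, 24 had no overlap between the 3 ficolin KO and the 3 WT arrays, 14 higher and 10 lower in ficolin KO mice. Over all genes, 3.21% had all ficolin KO arrays above and 3.07% all ficolin KO arrays below the WT arrays. An exact permutation test of 3 mice against 3 cannot give a two-sided p below 0.1, so the p-values given are those of limma, which shares the spread across genes. Every DEG other than Fcna, Nr1d1 and Reg2 had an adjusted p of 0.9993, and that of Nr1d1 and Reg2 was 0.461. The DEGs nearest to the criteria were Olfr543 (1.502-fold higher) and Snora28 (1.509-fold lower) just inside the fold, with Ccl3 and Spon2 (both 1.498-fold higher) just outside it. For the p, Aoah (0.0453) and Reg3d (0.0333) lay inside and Gm5481 (0.0566) and Hamp (0.0659) outside.

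**Figure D2:**
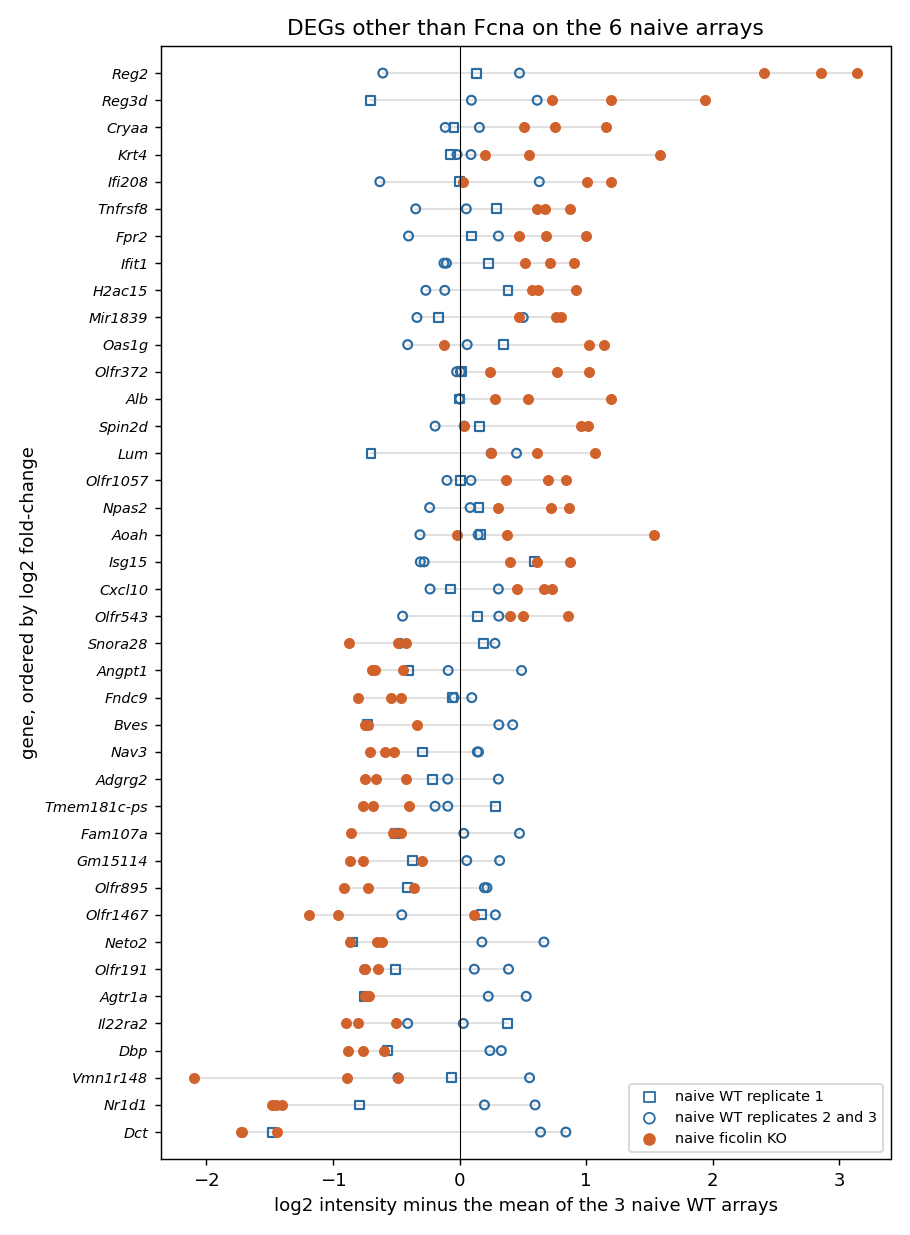
Log2 intensity of the 40 DEGs other than Fcna on each of the 6 naive arrays, minus the mean of the 3 naive WT arrays; open symbols are WT (squares for replicate 1) and filled circles are ficolin KO, and each row is 1 gene. WT replicate 1 sits next to the ficolin KO arrays in many of the lower genes, such as Dct, Agtr1a, Neto2 and Bves, while the arrays of Reg2 and Nr1d1 do not overlap.

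The DEG with the smallest p after Fcna was a gene of the circadian clock. The clock is a loop in which Clock or Npas2 pairs with Arntl (Bmal1) to drive the Per, Cry, Nr1d and PAR bZIP genes (Dbp, Tef, Hlf), and the products of Per, Cry and Nr1d genes repress the loop in turn; in the mouse most of these transcripts rise and fall over the day. Nr1d1, which encodes the repressor REV-ERB alpha, was 6.69, 8.08 and 7.68 in WT mice and 6.08, 6.03 and 6.00 in ficolin KO mice. The ficolin KO arrays were nearly equal and lay below every WT array, while the WT arrays spread widely. This was a 2.73-fold lower intensity (log2 fold-change -1.45, SE 0.25). Dbp, a transcription factor that carries the rhythm to output genes, was 7.56, 8.46 and 8.37 in WT and 7.25, 7.53 and 7.37 in ficolin KO mice. WT replicate 1 barely exceeded the highest ficolin KO array, and the mean was 1.68-fold lower in ficolin KO mice (log2 -0.75, SE 0.20). Npas2, the partner of Arntl, moved the other way, at 4.08, 4.01 and 3.69 in WT and 4.65, 4.79 and 4.23 in ficolin KO mice (1.55-fold higher, log2 0.63, SE 0.16), with WT arrays below the lowest array median.

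Among all 23 measured clock genes of 28 listed, these were the 3 DEGs (1 higher, 2 lower), where 0.185% of all genes were DEGs, and the median log2 fold-change was -0.13 against 0 over all genes. A further 3 members passed an unadjusted p under 0.05 without reaching 1.5-fold, all lower in ficolin KO mice, where 1.39% of all genes were lower by that p. They were Nr1d2 (REV-ERB beta, -0.41, SE 0.19), Per3 (-0.38, SE 0.13) and Hlf (-0.31, SE 0.13). Nr1d2 overlapped, at 6.18, 7.15 and 6.39 in WT and 6.21, 6.12 and 6.16 in ficolin KO mice, and its difference lay in WT replicate 2. Per3 was 5.04, 5.55 and 5.45 in WT and 4.90, 4.91 and 5.08 in ficolin KO mice, again with WT replicate 1 the lowest WT array. The core activator Arntl was 7.02, 7.15 and 6.88 in WT and 7.12, 7.17 and 7.29 in ficolin KO mice (0.18, SE 0.12), and Per1 had a log2 fold-change of -0.03 (SE 0.11). Clock, the paralog of Npas2, had a log2 fold-change of 0.15 (SE 0.20), Cry1 one of -0.13 (SE 0.11), Cry2 one of -0.33 (SE 0.17) and Tef one of -0.25 (SE 0.14), none with an unadjusted p under 0.05. The same holds for Arntl2, Nfil3, Ciart, Bhlhe40, Bhlhe41, Rora, Rorb, Csnk1e, Fbxl21, Usp2 and Wee1, whose log2 fold-changes ran from -0.21 (Rora) to 0.20 (Nfil3).

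The Nr1d1 difference depended on which WT array was left out. Its log2 fold-change was -1.84 without WT replicate 1, the WT array closest to the ficolin KO mice, -1.15 without WT replicate 2 and -1.35 without WT replicate 3 (limma adjusted p = 0.000425, 0.988 and 0.999), and it stayed between -1.47 and -1.43 as single ficolin KO arrays were left out. Dbp was no longer a DEG without WT replicate 2, and Npas2 was none without WT replicate 3, ficolin KO replicate 1 or ficolin KO replicate 2. The time of day at which each mouse was killed is not given in the sources used here, and its part in these values was not tested. In LPS challenged mice none of the 23 clock genes had an unadjusted p under 0.05 between the genotypes. There Nr1d1 was 6.84, 6.76 and 6.47 in WT and 6.66, 7.02 and 6.55 in ficolin KO mice. The hexamer CACGTG, the E-box that Clock or Npas2 binds together with Arntl, was searched in the promoter windows of RefSeq (250 bases before to 50 after the start site, both strands, GRCm38.p6), where 8.09% of 27025 genes held it (7.15% of 32851 windows). It was present in 5 of the 21 clock genes with a window (23.8%) and in none of the 3 DEGs, which says only that these letters are not in this window.

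**Figure D3:**
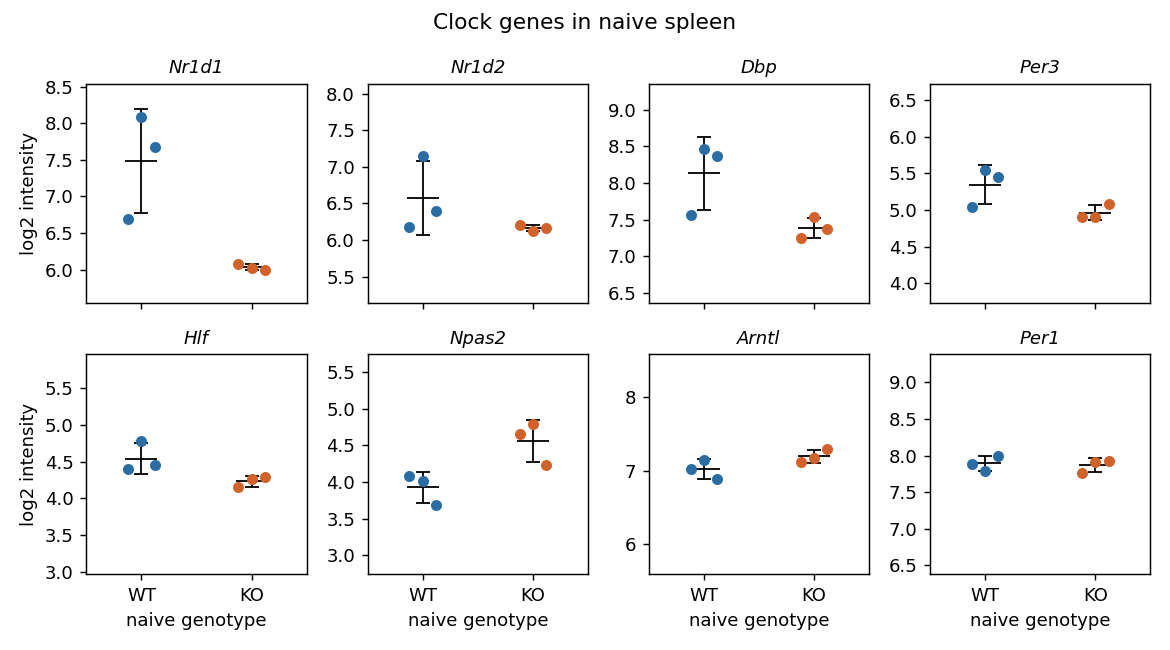
Log2 intensity of 8 clock genes in naive spleen, with 1 point per mouse (WT blue, ficolin KO orange) and the mean and SD (n = 3) in black; each panel spans 3 log2 units. Nr1d1 and Dbp were lower and Npas2 was higher in ficolin KO mice with no overlap of the arrays, while Arntl and Per1 overlapped.

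Among interferon-stimulated genes, 4 were DEGs that were higher and none was a DEG that was lower in naive ficolin KO mice. Such genes are switched on when type I and type III interferons activate STAT and IRF proteins, which bind the interferon-stimulated response element in their promoters, and many of the products restrict viruses. Of 36 measured members of 40 listed, 4 were DEGs, all higher (Ifit1, Oas1g, Isg15 and Cxcl10), none was lower, and 32 had a positive log2 fold-change. Over all genes 0.0947% were DEGs that were higher, and 49.8% had a positive log2 fold-change. The median over the list was 0.23 (1 mean per array of 6.18, 6.09 and 5.96 in WT and 6.44, 6.30 and 6.23 in ficolin KO mice), against 0 over all genes. By the unadjusted p alone 8 were higher and 0 lower, where 1.46% of all genes were higher.

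The promoters of the 4 DEGs are shown because each holds the letters of that element, GAAANNGAAA on either strand, within the window, as did 16 of the 27 listed genes with a window (59.3%) and 3.99% of all 27025 genes with one (3.44% of 32851 windows). The stretches of 80 bases are from RefSeq promoter windows (GRCm38.p6), written 5′ to 3′ in the direction of the gene, with matches in capitals, neighbouring matches running together.
Ifit1, chr19:34640769-34640848, plus strand, from 120 to 41 bases before the start site, with 2 matches on the opposite strand: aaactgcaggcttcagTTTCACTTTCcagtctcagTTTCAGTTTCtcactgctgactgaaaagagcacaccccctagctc
Isg15, chr4:156200849-156200928, minus strand, from 110 to 31 bases before the start site, with 3 overlapping matches: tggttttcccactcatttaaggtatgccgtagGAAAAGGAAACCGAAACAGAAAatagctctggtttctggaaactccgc
Cxcl10, chr5:92349050-92349129, minus strand, from 240 to 161 bases before the start site, with 1 match: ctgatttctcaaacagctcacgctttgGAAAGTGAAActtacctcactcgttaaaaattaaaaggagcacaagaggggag
Oas1g, chr5:120887614-120887693, minus strand, from 80 to 1 bases before the start site, with 2 overlapping matches: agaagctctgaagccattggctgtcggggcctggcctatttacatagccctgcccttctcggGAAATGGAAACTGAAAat
The matches are a description of these letters, and no binding was measured.

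Ifit1, which encodes a protein that binds viral RNA, was 5.53, 5.20 and 5.18 in WT and 6.21, 6.02 and 5.82 in ficolin KO mice. Every ficolin KO array lay above every WT array, a 1.64-fold difference (log2 0.71, SE 0.16), and it remained a DEG with each of the 12 arrays left out. Cxcl10, a chemokine that draws in activated T and NK cells, was 7.11, 6.95 and 7.49 in WT and 7.91, 7.85 and 7.64 in ficolin KO mice, again without overlap (1.53-fold, log2 0.62, SE 0.14). Isg15, a ubiquitin-like modifier, was 5.48, 4.58 and 4.61 in WT and 5.29, 5.50 and 5.76 in ficolin KO mice, where WT replicate 1 lay within the ficolin KO arrays (1.54-fold, log2 0.63, SE 0.22). Oas1g, an oligoadenylate synthetase, was 5.04, 4.75 and 4.28 in WT and 5.71, 5.83 and 4.57 in ficolin KO mice, where replicate 3 overlapped with WT (1.60-fold, log2 0.68, SE 0.27). Oasl2, a relative of the oligoadenylate synthetases, was tight within each group, at 6.00, 6.13 and 6.07 in WT and 6.72, 6.49 and 6.53 in ficolin KO mice. It had the smallest p of the list (0.000248) and stayed under the fold criterion (1.43-fold, log2 0.51, SE 0.11). Mx2, Ifih1 and Oasl1, which encode an antiviral GTPase, a sensor of viral RNA and another relative of the oligoadenylate synthetases, also had an unadjusted p under 0.05, at log2 fold-changes of 0.49, 0.40 and 0.36.

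Other genes of the same programme did not pass. Stat2 and Irf9, which form the complex that binds the element, had log2 fold-changes of -0.08 (SE 0.13) and 0.15 (SE 0.11), and Mx1, Rsad2 and Cmpk2 lay between -0.01 and 0.06. None of 12 interferon and interferon receptor genes was a DEG or had an unadjusted p under 0.05. Over all genes, 0.185% were DEGs and 2.85% had such a p. Ifi208, an interferon-inducible gene of the PYHIN family outside the list, was a DEG, at 4.35, 4.98 and 3.72 in WT and 5.55, 4.38 and 5.36 in ficolin KO mice with overlap. The median of the list ran from 0.15 to 0.30 as single naive arrays were left out, with 2 to 4 DEGs. Isg15 lost its place without WT replicate 2, WT replicate 3 or ficolin KO replicate 3, Oas1g without WT replicate 3, ficolin KO replicate 1 or ficolin KO replicate 2, and Cxcl10 without WT replicate 1 (0.58), WT replicate 2 or ficolin KO replicate 1. After LPS challenge these genes were bright in both genotypes, with Ifit1 at 9.60, 9.10 and 9.56 in WT and 9.19, 9.36 and 9.56 in ficolin KO mice, and the median genotype difference of the list was -0.03.

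**Figure D4:**
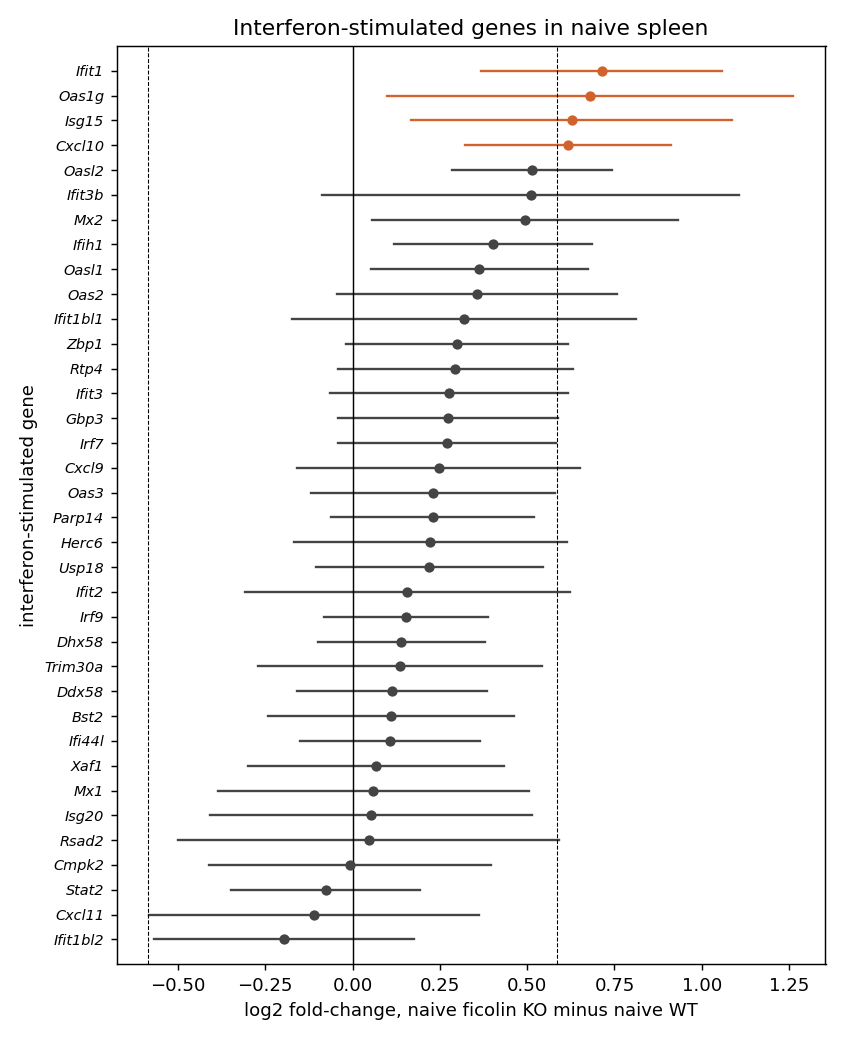
Log2 fold-change of 36 interferon-stimulated genes in naive spleen, ficolin KO over WT mice; points are estimates, bars are 95% intervals from limma, orange marks the 4 DEGs and dashed lines mark a 1.5-fold change. Most points lie right of 0, with a median of 0.23, and most intervals reach across 0.

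Receptors and mediators of myeloid and lymphoid cells gave single DEGs. Fpr2, a receptor by which neutrophils and macrophages sense formyl peptides, was 4.73, 4.23 and 4.94 in WT and 5.32, 5.10 and 5.63 in ficolin KO mice, with no overlap (1.64-fold higher, log2 0.72, SE 0.19). Among 13 measured chemoattractant receptors it was the 1 DEG, where 0.185% of all genes were DEGs. Ptafr, the receptor of platelet-activating factor (0.39, SE 0.15), and Cxcr2, the neutrophil chemokine receptor (0.42, SE 0.20), had an unadjusted p under 0.05, whereas the complement receptors C5ar1 (-0.06), C5ar2 (0.03) and C3ar1 (0.25) did not. The means of the 14 neutrophil markers were 6.73, 6.20 and 5.92 in WT and 5.84, 6.30 and 7.01 in ficolin KO mice and overlapped, and their part in the Fpr2, Ptafr and Cxcr2 values was not tested. Tnfrsf8 (CD30), which activated lymphocytes carry, was 4.53, 4.29 and 3.89 in WT and 4.91, 4.85 and 5.11 in ficolin KO mice (1.65-fold higher, log2 0.72, SE 0.18). It was the 1 DEG among 24 members of the TNF receptor superfamily, whose median was 0.04. At a share of 0.185% over all genes, lists of this size would mostly hold no DEG.

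Aoah, the enzyme that removes acyl chains from LPS, was 4.80, 4.78 and 4.32 in WT and 4.61, 5.01 and 6.17 in ficolin KO mice. The groups overlapped, and much of its 1.55-fold difference lay in ficolin KO replicate 3. Aoah was no DEG without that array, nor without WT replicate 2 or WT replicate 3. It was also lost without LPS challenged WT replicate 3 or any single LPS challenged ficolin KO array. Ccl3, a chemokine of macrophages, stood just outside the fold criterion, at 5.58, 5.28 and 5.82 in WT and 6.27, 6.33 and 5.83 in ficolin KO mice (0.58, SE 0.16). It was the 1 of 22 cytokine genes of the study's Luminex panel with an unadjusted p under 0.05, and none of the 22 was a DEG. Over all genes, 2.85% had such a p and 0.185% were DEGs. Il22ra2, which encodes a soluble receptor that captures interleukin-22, was 4.39, 3.60 and 4.04 in WT and 3.51, 3.11 and 3.21 in ficolin KO mice (1.66-fold lower, log2 -0.73, SE 0.17). The arrays did not overlap, yet both means lay below the lowest array median. Il22 itself (0.09), its receptor chains Il22ra1 (-0.02) and Il10rb (0.03) and the other members of the 11-gene interleukin-22 axis were not DEGs. The share of DEGs over all genes was 0.185%.

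Genes of the Reg family, secreted lectin-like proteins made mainly by pancreas and gut, included the largest rise. Reg2 was 3.87, 3.13 and 4.21 in WT and 6.88, 6.14 and 6.59 in ficolin KO mice (at a log2 fold-change of 2.80, SE 0.51, or 6.96-fold), and Reg3d was 3.20, 4.52 and 4.0 in WT and 5.85, 4.64 and 5.10 in ficolin KO mice (1.29, SE 0.55). Neither overlapped, and the WT means lay below the lowest array median. Reg1 was bright and overlapping, at 8.06, 9.57 and 9.67 in WT and 11.22, 9.54 and 10.09 in ficolin KO mice (1.18, SE 0.99), and Reg3a, Reg3b, Reg3g and Reg4 lay between -0.16 and 0.16. Beside them, 29 exocrine pancreas genes had array means of 6.79, 8.45 and 7.68 in WT and 8.94, 7.46 and 7.99 in ficolin KO mice. Their median log2 fold-change was 0.53, with 28 positive values and no DEG. Over all genes, 49.8% were positive and 0.185% were DEGs. The pancreas means overlapped between the genotypes. With that mean as a covariate in the fit to all arrays, the log2 fold-change of Reg2 was 2.52 (SE 0.38). Reg2 had no adjusted p under 0.05 in that fit, as in the main fit. The fit included the LPS challenged mice, whose pancreas means ran from 4.1 to 9.21, a wider span than in naive mice. The part of the pancreas genes in the Reg2 values was not tested in naive mice alone.

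In many of the lower DEGs WT replicate 1 was the lowest WT array. This held for 15 of the 20 lower DEGs, Fcna, Nr1d1 and Dbp included. In 7 of them WT replicate 1 lay at or below the highest ficolin KO array. The margin could be small, as in Fndc9 (3.97 against 3.98 and 4.12 in the other WT arrays). The share over all genes with WT replicate 1 lowest was not counted, so these counts only describe the lower DEGs. Dct, an enzyme of melanin synthesis, was 4.0, 6.12 and 6.32 in WT and 4.04, 3.75 and 3.76 in ficolin KO mice, a 3.10-fold lower mean (log2 -1.63, SE 0.54) that came from WT replicates 2 and 3. In LPS challenged mice Dct also varied within both groups, at 4.12, 5.36 and 5.62 in WT and 5.11, 3.38 and 4.73 in ficolin KO mice. Agtr1a, an angiotensin receptor, was 6.90, 8.18 and 7.88 in WT and 6.93, 6.94 and 6.91 in ficolin KO mice, so that WT replicate 1 could not be told from the ficolin KO arrays (log2 -0.73, SE 0.24). Neto2, a membrane protein that associates with kainate receptors in the brain, was 5.93, 7.44 and 6.95 in WT and 5.91, 6.16 and 6.12 in ficolin KO mice. Bves, a membrane protein of muscle and epithelium, was 4.32, 5.36 and 5.47 in WT and 4.30, 4.71 and 4.33 in ficolin KO mice, again with WT replicate 1 among the ficolin KO arrays.

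Angpt1, a ligand of the endothelial receptor Tek, was 4.46, 5.35 and 4.77 in WT and 4.41, 4.17 and 4.19 in ficolin KO mice, and WT replicate 1 was only just above the highest ficolin KO array. Nav3, a microtubule-associated protein, was 5.22, 5.65 and 5.66 in WT and 4.99, 4.92 and 4.80 in ficolin KO mice without overlap (log2 -0.61, SE 0.16). Adgrg2, an adhesion G protein-coupled receptor, was 5.62, 6.14 and 5.74 in WT and 5.41, 5.17 and 5.09 in ficolin KO mice, also without overlap (log2 -0.61, SE 0.16). Fam107a, an actin-associated protein, overlapped through WT replicate 1 (4.52 against 4.17 to 4.56 in ficolin KO mice). The mean of WT replicate 1 over 8 adipose genes, none a DEG, was 4.93, below the ficolin KO mice (5.15 to 5.91). WT replicate 2 lay above them at 6.10, and WT replicate 3 was 5.51. The erythroid mean of WT replicate 1 was 8.55, above the ficolin KO mice (6.78 to 8.01). WT replicate 3 lay below them at 6.62, and WT replicate 2 was 7.45. The part of these lists in the lower genes was not tested. Over all genes WT replicate 2 differed most from the other WT arrays. WT replicates 1 and 3 correlated at 0.990, and WT replicate 2 with each of them at 0.987. In the fit with array weights, WT replicate 1 had the highest weight of all arrays (1.44) and WT replicate 2 the lowest (0.483). Without WT replicate 1, 110 genes were DEGs, of which 33 were among the 41 (16 of the 20 lower genes) and 77 were further genes.

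The remaining DEGs included many probe sets with intensities near the floor of the array. Both groups lay below the lowest array median in 13 of the 41 DEGs (31.7%), as in 42.9% of all genes. Olfactory receptors, known for their work in the nose, made up 6 of the 41: Olfr1057, Olfr372 and Olfr543 were higher and Olfr191, Olfr895 and Olfr1467 lower in ficolin KO mice, out of 1105 olfactory receptor genes (0.543%, against 0.185% of all genes). The 1105 genes had a median intensity of 2.65 and a 95th percentile of 3.95, and 10 DEGs were below that percentile in both groups. Olfr372 was an example, at 2.44, 2.43 and 2.40 in WT and 2.66, 3.45 and 3.19 in ficolin KO mice. Vmn1r148, a vomeronasal receptor gene, was brighter, at 5.32, 5.94 and 4.90 in WT and 4.90, 4.50 and 3.29 in ficolin KO mice, with a log2 fold-change of -1.16 (SE 0.37) and groups that met at 4.90.

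Cryaa, a crystallin of the eye lens related to small heat shock proteins, was 3.70, 3.63 and 3.90 in WT and 4.90, 4.50 and 4.25 in ficolin KO mice (1.75-fold higher, log2 0.81, SE 0.18) by 1 of its probe sets, with -0.08 (SE 0.14) by the other. The second probe sets of Angpt1 (0.05), Fam107a (-0.14) and Spin2d (-0.15) did not pass either, and were dimmer than the sets used. Krt4, a keratin of squamous epithelium, was 3.08, 3.13 and 3.24 in WT and 3.35, 4.73 and 3.70 in ficolin KO mice, and Alb, serum albumin, was 3.81 on each WT array and 4.35, 4.09 and 5.01 in ficolin KO mice. In both, 1 ficolin KO array carried much of the difference, and neither was a DEG without it (replicate 2 for Krt4, replicate 3 for Alb). H2ac15, a histone gene, rose from 2.98, 2.48 and 2.33 to 3.17, 3.22 and 3.52, at dim levels throughout. It was the 1 DEG among 40 measured histone genes, where 0.185% of all genes were DEGs. The small RNA genes were Mir1839, a microRNA higher at a dim level (2.70, 3.37 and 2.53 against 3.67, 3.63 and 3.34), and Snora28, a small nucleolar RNA lower at a bright level (8.11, 7.45 and 8.20 against 7.50, 7.43 and 7.05). Fndc9, Gm15114 and Tmem181c-ps completed the lower genes, and Spin2d and Lum, a proteoglycan of connective tissue, the higher ones.

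The LPS challenged mice were other animals of the same genotypes, and their genotype difference used none of the naive arrays. Of the 40 DEGs other than Fcna, 15 had the same sign in LPS challenged mice, 25 did not, and none had the same sign with an unadjusted p under 0.05, where 5.18% of all genes passed that p in either direction. Reg2, Reg3d and H2ac15 passed it in the opposite direction. The median absolute log2 fold-change of the 40 genes was 0.68 in naive and 0.14 in LPS challenged mice, the first of which the criteria had selected for size. For 20 of the 40 genes the 95% interval in LPS challenged mice lay within a 1.5-fold change. Fcna was the 1 DEG of naive mice that met the criteria in the same direction in both states, after LPS challenge at 8.12, 7.92 and 8.21 in WT and 4.36, 4.34 and 4.45 in ficolin KO mice (log2 fold-change -3.70, SE 0.20). As the state of the mice differed, this sets the values side by side and is no replicate of the naive comparison. Among the 41, Reg2 alone had a difference between the states with a limma adjusted p under 0.05 (-6.11, SE 0.72, adjusted p = 0.00657). That adjusted p was 0.573 with the mean of the pancreas genes added to the fit (-4.24), 0.985 with trended and robust variances and 0.110 with all probe sets. In LPS challenged ficolin KO mice 26 of the 29 exocrine pancreas genes and 6 of the 7 Reg genes were also DEGs, where 0.46% of all genes were. All of these were lower, and the medians of the 2 lists were -3.19 and -2.89. Beyond the fit with their mean as a covariate, the part of the pancreas genes in the Reg2 difference was not tested.

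**Figure D5:**
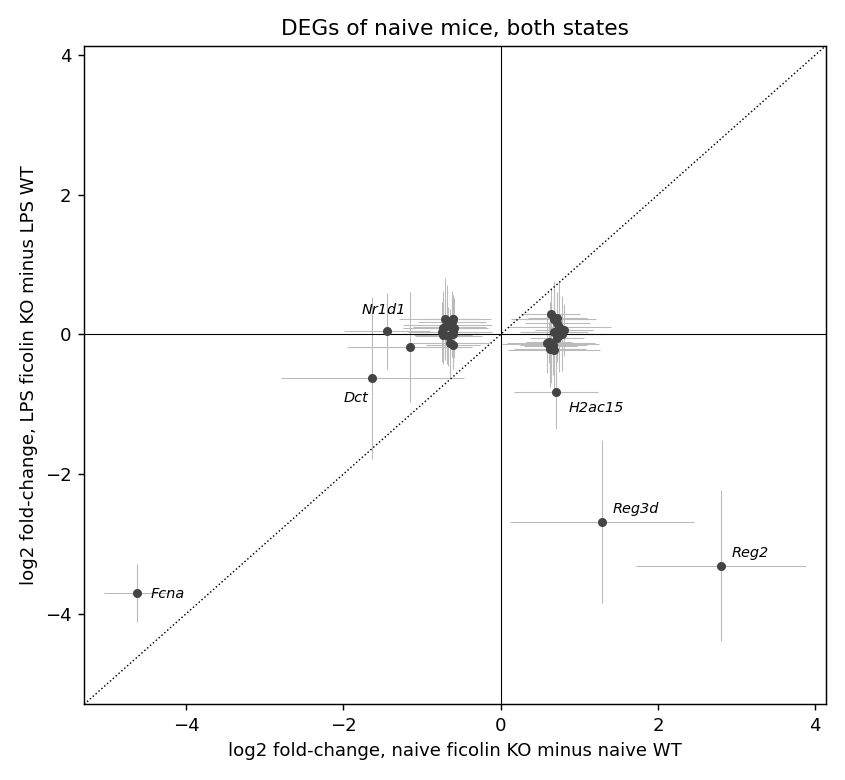
Genotype difference (log2 fold-change, ficolin KO over WT) of the 41 DEGs of naive mice, in naive mice on the horizontal axis and in LPS challenged mice on the vertical axis; bars are 95% intervals from limma and the dotted line marks equal values. Fcna lies far below 0 on both axes, Reg2, Reg3d and H2ac15 lie on opposite sides of 0, and most others lie near 0 on the vertical axis.

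Genes on either side of Fcna and Fcnb on chromosome 2 were read to see whether the targeted region differed more widely. Of 159 measured genes within 50 genes of either locus, none was a DEG, 5 were higher and 2 lower at an unadjusted p under 0.05 (4.40%, against 2.85% of all genes), and log2 fold-changes ran from -0.36 to 0.64 with a median of 0. Olfm1, which encodes a secreted glycoprotein of neurons and lies 2 genes from Fcnb in this order, was 5.99, 5.95 and 6.28 in WT and 6.33, 6.67 and 6.37 in ficolin KO mice (0.38, SE 0.15). After LPS challenge it was 6.06, 6.00 and 5.68 in WT and 6.52, 6.27 and 6.14 in ficolin KO mice (0.40), the 1 of the 159 genes with the same sign and an unadjusted p under 0.05 in both states. After LPS challenge 3 of the 159 were DEGs, all lower in ficolin KO mice: Coq4, a gene of coenzyme Q synthesis (-1.20), Cel, a lipase of the exocrine pancreas (-3.98), and 6530402F18Rik (-0.61), with 0.16, 0.64 and -0.06 in naive mice. Of all genes, 0.46% were DEGs after LPS challenge. By the unadjusted p alone 13 of the 159 passed there, where 5.18% of all genes did. In naive mice Slc2a6, a sugar transporter gene 12 genes from Fcnb, was higher (0.38, SE 0.14) and Lcn5, a lipocalin gene 2 genes from Fcna, was lower and dim (-0.33, SE 0.10).

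Probe sets that carry no gene symbol lay outside the 22180 genes. Of 16004 such probe sets 286 (1.79%) met the same criteria in naive mice, and 2 of them had an adjusted p under 0.05 when all 41345 probe sets were tested. Probe set 17549150 was 4.11, 4.34 and 4.32 in WT and 8.34, 8.62 and 8.28 in ficolin KO mice (4.16 higher, SE 0.16, limma adjusted p = 3.80e-07). Probe set 17549062 was 4.43, 4.39 and 4.43 in WT and 7.99, 8.47 and 8.04 in ficolin KO mice (3.75 higher, SE 0.15, limma adjusted p = 3.80e-07). Both were also higher in every ficolin KO array after LPS challenge, by 4.54 and 3.98. The annotation used here gives them no gene.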

How the data were processed

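Spleen RNA of 12 mice was hybridized to 12 arrays. The deposited table holds a log2 intensity per probe set and array, with 2 decimals, which the authors made by quantile normalization and RMA summaries in Qlucore Omics Explorer; the build used for probe annotation is not given in the sources used here. Of 41345 probe sets, 23521 had 1 gene symbol, 1820 several and 16004 none, and 22180 genes remained, with no filter on dim genes. Array medians were 4.17 to 4.27. Limma 3.58.1 (R 4.3.3) was fitted to all 12 arrays in 4 groups (8 residual, 6.67 prior degrees of freedom), with Benjamini-Hochberg adjustment over all genes, and was tested on simulated data. The number of arrays limits the precision. Nothing says whether mice of 1 group shared a cage or day. Genes near Fcna and Fcnb were ordered by the RefSeq annotation (21994 genes placed). Named were the DEGs, the clock genes, called members or up to 4 of smallest p of each list described, members that complete a count, and genes next to each criterion; other names were picked after their values were seen. The comparison, lists and motifs were chosen with earlier results of these data known. Lists not described above (immunoglobulin and T cell receptor variable genes, pancreatic islets, mitosis, glucocorticoid-responsive genes, immediate early genes, Y and vault RNAs) held no DEG, where 0.185% of all genes were DEGs. The immunoglobulin lists held only 3 heavy, 13 kappa and 1 lambda variable genes, those with a symbol of their own in this annotation. The paper's list of naive DEGs includes immunoglobulin variable genes with larger fold-changes than any of these. The lists thus cannot show that no variable gene differed. Alternatives were other fits, filters, probe set rules, normalizations, a replicate block, a pancreas covariate, other thresholds and each array left out.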

Additional observations from a re-analysis of the deposited data

Results flagged for a closer look

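The genotype difference of Reg2 differed between the states, with 2.80 in naive and -3.31 in LPS challenged mice on the log2 scale, a difference of -6.11 (SE 0.72, adjusted p = 0.00657 from limma), and its arrays did not overlap in either state. The adjusted p was 0.573 with the mean of 29 exocrine pancreas genes in the fit (-4.24), and 28 of the 29 were lower in LPS challenged ficolin KO mice at an unadjusted p under 0.05, with a median of -3.19. Of all genes, 5.18% had such a p after LPS challenge, in either direction. Probe sets 17549062 and 17549150, which have no gene symbol and so lay outside the main comparison, were higher in naive ficolin KO mice by 3.75 and 4.16 on the log2 scale, above the level of every WT array.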

How the results depend on the processing

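The 41 DEGs became 17 with ordinary least squares on the naive groups, 20 with genes above the median mean, 25 with genes above the array median, 333 with all probe sets, 633 with no fold criterion, 6 with a fold-change over 2, and 40 to 110 with single arrays left out. Without WT naive replicates 1, 2 and 3 they were 110, 75 and 62, and without KO naive replicates 1, 2 and 3 they were 92, 82 and 72, of which 33, 26, 22, 32, 30 and 21 were among the 41. Array weights gave 33 higher and 17 lower genes and all probe sets 133 and 200, against 21 and 20. Genes with an adjusted p under 0.05 numbered 2 with the 6 naive arrays alone (Fcna and Reg2), 3 with all probe sets (Fcna and the probe sets without symbol), 0 with ordinary least squares (628 at an unadjusted p under 0.05, and 633 by limma), where Fcna kept -4.63 (adjusted p = 0.892), and 1 to 2 with single arrays left out (Nr1d1 without WT naive replicate 1, Spin2d without KO naive replicate 3, Reg2 without KO LPS replicate 3). Fcnb was -0.057 with array weights and ran from -0.133 to 0.122 with single arrays left out. The difference between the states passed for 0 of the 41 genes with trended and robust variances, all probe sets or the pancreas covariate, and for 1 to 2 with single arrays left out. Same-numbered naive arrays deviated with correlations of -0.20, -0.22 and -0.07 and other pairs with -0.04 to 0.21, and the mice were treated as unpaired. Such correlations cannot show whether same-numbered mice shared a cage or day. The replicate block gave 43 DEGs, 2 genes at an adjusted p under 0.05 and 2 for the difference. Fcna, Reg2, Nr1d1, Ifit1 and Cryaa were DEGs with each of the 12 arrays left out, and the other 36 lost their place without at least 1 naive array. The causes were not tested. Of 1186 comparisons of single genes other than Fcna and Fcnb and of list counts, 1032 kept their side of the criteria or stayed close to the main count, 146 lost and 8 gained, and none changed direction. Dim intensities limit 13 of the 41 DEGs.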
